A study of Mus musculus with 57 samples.

Results

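The promoters described here are those of autosomal genes at which none of 3 histone marks was found. A gene was taken when no peak of H3K4me3, H3K27ac or H3K27me3 lay within 1 kb of any of its transcription start sites (TSSs) in any of 57 chromatin immunoprecipitation sequencing (ChIP-seq) libraries, and 3193 of the 24963 autosomal genes of the curated RefSeq set on mm10 (12.8%) met this rule. The absence of peaks chose these genes and is therefore not a result. Brain cortexes (9 libraries for each mark) and gastrocnemius muscles (10 for each mark) came from 10 PSAPP mice of both sexes, and 9 of these mice gave both tissues. PSAPP mice carry transgenes for a mutant human presenilin 1 and for a chimeric mouse/human amyloid precursor protein with the Swedish mutation, develop amyloid plaques and serve as a model of Alzheimer's disease. The promoters that drive these transgenes are not given in the sources used here. All mice received chow until 6 months of age, were then kept singly on a modified AIN-93 diet with a fixed daily food intake, and were sacrificed at 13 months. No mouse without the transgenes was profiled, so the values describe PSAPP tissue only.

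H3K4me3 is laid down at the starts of active and poised genes, above all where the DNA is rich in CpG dinucleotides, through methyltransferase complexes that bind unmethylated CpG. H3K27ac marks active promoters and enhancers, while H3K27me3 is written by Polycomb repressive complex 2 and covers silent developmental genes. Genes that a tissue never uses may carry H3K27me3, or they may lie in chromatin without any of these marks, which is often DNA-methylated or held by H3K9 methylation. Olfactory receptor genes in cells outside the nose may be of either kind.

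The contrast in base composition can be read from the promoters themselves. The 250 bases before the TSS are given below from the RefSeq promoter table of GRCm38.p6, the assembly that mm10 represents, which held 2329 of the 3193 unmarked genes. Each is written 5′ to 3′ on the strand of its gene, with CpG dinucleotides in capitals. The first 6 are unmarked genes, taken in list order from genes of liver (Hpx, the plasma heme carrier hemopexin), pancreas (Ins1, insulin), retina (Rpe65, the retinoid isomerase of the pigment epithelium), sperm (Pgk2, the phosphoglycerate kinase of male germ cells) and epidermis (Sprr2a1, a cornified envelope protein) and from the olfactory receptors (Olfr10). The next pair, Gapdh (a glycolytic enzyme) and Tbp (the TATA binding protein), are housekeeping genes with an H3K4me3 peak in 19 of 19 libraries. The last pair, Asz1 and Hormad1, are germ cell genes that were unmarked although rich in CpG, and they were chosen after their values had been seen.
Hpx (chr7:105600117-105600366, minus strand): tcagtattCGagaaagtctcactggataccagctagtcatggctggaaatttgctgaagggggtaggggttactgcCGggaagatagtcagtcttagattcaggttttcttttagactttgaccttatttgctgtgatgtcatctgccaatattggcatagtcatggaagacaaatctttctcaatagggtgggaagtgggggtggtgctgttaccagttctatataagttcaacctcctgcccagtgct
Ins1 (chr19:52264047-52264296, plus strand): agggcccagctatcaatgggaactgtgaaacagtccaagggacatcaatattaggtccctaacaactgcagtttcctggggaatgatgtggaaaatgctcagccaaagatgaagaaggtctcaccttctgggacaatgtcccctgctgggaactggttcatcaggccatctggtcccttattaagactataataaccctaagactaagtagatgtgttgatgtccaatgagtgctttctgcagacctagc
Rpe65 (chr3:159598931-159599180, plus strand): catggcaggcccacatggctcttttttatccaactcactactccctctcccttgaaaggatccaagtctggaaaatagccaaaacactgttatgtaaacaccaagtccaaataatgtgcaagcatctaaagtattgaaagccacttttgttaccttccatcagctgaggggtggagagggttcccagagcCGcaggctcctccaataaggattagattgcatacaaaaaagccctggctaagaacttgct
Pgk2 (chr17:40208610-40208859, minus strand): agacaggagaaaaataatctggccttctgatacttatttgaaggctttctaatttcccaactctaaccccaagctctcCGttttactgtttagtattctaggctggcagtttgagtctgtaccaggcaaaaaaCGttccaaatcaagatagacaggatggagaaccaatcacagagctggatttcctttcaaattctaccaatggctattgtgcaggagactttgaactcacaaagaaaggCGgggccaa
Sprr2a1 (chr3:92215585-92215834, plus strand): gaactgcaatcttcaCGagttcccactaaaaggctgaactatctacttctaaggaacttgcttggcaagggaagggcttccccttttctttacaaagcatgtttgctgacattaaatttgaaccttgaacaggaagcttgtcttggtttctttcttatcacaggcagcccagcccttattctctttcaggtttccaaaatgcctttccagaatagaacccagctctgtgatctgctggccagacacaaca
Olfr10 (chr11:49317298-49317547, plus strand): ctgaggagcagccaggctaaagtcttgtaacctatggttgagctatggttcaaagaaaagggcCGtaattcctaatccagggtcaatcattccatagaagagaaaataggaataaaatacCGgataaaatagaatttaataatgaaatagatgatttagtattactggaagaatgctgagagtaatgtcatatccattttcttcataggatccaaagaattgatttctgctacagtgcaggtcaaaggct
Gapdh (chr6:125165774-125166023, minus strand): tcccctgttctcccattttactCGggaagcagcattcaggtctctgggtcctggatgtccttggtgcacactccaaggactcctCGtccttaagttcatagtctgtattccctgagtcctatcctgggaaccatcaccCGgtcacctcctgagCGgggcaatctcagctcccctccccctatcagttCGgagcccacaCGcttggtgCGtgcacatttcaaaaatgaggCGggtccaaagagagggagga
Tbp (chr17:15499638-15499887, plus strand): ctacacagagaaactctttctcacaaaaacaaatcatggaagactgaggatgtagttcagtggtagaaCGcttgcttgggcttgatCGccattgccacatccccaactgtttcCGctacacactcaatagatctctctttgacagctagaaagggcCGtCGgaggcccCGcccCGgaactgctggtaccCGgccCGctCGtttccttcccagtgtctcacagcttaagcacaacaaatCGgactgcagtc
Asz1 (chr6:18109062-18109311, minus strand): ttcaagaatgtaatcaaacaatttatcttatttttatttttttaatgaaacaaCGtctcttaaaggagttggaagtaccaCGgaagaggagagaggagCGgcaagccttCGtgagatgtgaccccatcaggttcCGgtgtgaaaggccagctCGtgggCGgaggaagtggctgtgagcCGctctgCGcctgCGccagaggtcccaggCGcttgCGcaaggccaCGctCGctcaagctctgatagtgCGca
Hormad1 (chr3:95559429-95559678, plus strand): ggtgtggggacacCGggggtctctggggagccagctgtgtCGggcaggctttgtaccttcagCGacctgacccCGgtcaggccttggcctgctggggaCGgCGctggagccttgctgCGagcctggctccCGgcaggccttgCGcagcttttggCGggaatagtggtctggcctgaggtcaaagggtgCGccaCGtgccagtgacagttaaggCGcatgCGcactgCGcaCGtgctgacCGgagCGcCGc
The Gapdh sequence belongs to a start other than the one used for its CpG ratio below, where the 300-base promoter held 7 CpG at a ratio of observed to expected CpG of 0.258. The counts of CpG in these 250 bases were 2 for Hpx, 0 for Ins1, 1 for Rpe65, 3 for Pgk2, 1 for Sprr2a1 and 2 for Olfr10, against 8 for Gapdh and 11 for Tbp. Asz1 had 15 and Hormad1 had 19, more than either housekeeping gene.

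The libraries differed in their reads in peaks, while their total numbers of reads were not used here. Reads in autosomal peaks ran from 9.03 to 18.6 M for H3K4me3, from 3.90 to 27.04 M for H3K27ac and from 2.99 to 18.2 M for H3K27me3, and reads outside peaks were not analysed here. Cortex replicate 9 of H3K27ac, with 3.90 M reads in peaks, had no peak near 9731 genes, against 8049 to 8547 in the other cortex libraries of this mark. Gastrocnemius replicate 5 of H3K27me3, with 18.2 M, had no peak near 17196 genes, against 18190 to 19682 in the other gastrocnemius libraries of this mark. The tissue labels were checked on marker genes. H3K4me3 was present in all 9 cortex libraries at 18 of 18 neuronal and 5 of 22 muscle fibre genes, and in all 10 gastrocnemius libraries at 9 of 18 neuronal and 21 of 22 muscle fibre genes. Neither list held an unmarked gene, and neither did those of microglia (15 genes), oligodendrocytes (11), astrocytes (10), endothelium (12), adipocytes (9) or housekeeping genes (14). In tissue chromatin a mark held by few cells may give no peak, so an unmarked gene may still be marked in a minority of the cells.

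Many genes lay close to the edge of the rule. In the cortex alone 3834 genes were without any mark, in the gastrocnemius alone 3979, and 3193 in both, while 14152 genes had a peak in 38 or more of the 57 libraries. There were 1518 genes with a peak in 1 to 5 libraries, and a single library separated 458 of them from the unmarked set. Of these, 128 owed their only peak to gastrocnemius replicate 5 of H3K27me3, and without this library the unmarked genes would number 3321. The peaks behind those 458 calls held 88 reads in the median, with 30 at the lowest (Gm12551, Gm4425 and n-R5s149) and 5993 at the highest (Morf4l1-ps1). The unmarked genes nearest to a peak were 4930449I24Rik at 1002 bases, Trappc3l at 1004 and Olfr358 at 1012. There were 55 unmarked genes with their nearest peak 1000 to 1200 bases away and 53 others with it at 800 to 1000 bases.

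Receptors of the chemical senses held more unmarked genes than any other family listed here. Of 1119 autosomal olfactory receptor genes, the odorant receptors of the nasal epithelium, 807 (72.1%) were unmarked, and they made up 25.3% of all unmarked genes. The share was 76.8% for type 1 vomeronasal receptors (175 of 228) and 92.6% for type 2 (112 of 121), both pheromone receptors of the vomeronasal organ. Among bitter taste receptors, 26 of 35 were unmarked. Of the trace amine receptors, which sense volatile amines in the nose, 8 of 15 were unmarked. Among genes with at least 90% of their 51-base words found once in the genome, the counts were 48 of 87 for type 1 vomeronasal, 54 of 59 for type 2, 25 of 34 for bitter taste and 1 of 7 for trace amine receptors. Of the 312 olfactory receptors that were marked, 310 carried H3K27me3, 21 carried H3K27ac and 5 carried H3K4me3, and 177 had a peak in 5 libraries or fewer. For 587 of the 807 unmarked olfactory receptors RefSeq places every start at the first coding base, so a promoter farther upstream, before exons that RefSeq does not hold, was not measured. Of the autosomal olfactory receptors with such starts only, 72.7% were unmarked, and of those with another start 70.5% (220 of 312). Over all unmarked genes every start was the first coding base for 960, against 1392 of the 24963 autosomal genes.

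Several families of secreted proteins and 1 of liver enzymes were unmarked as a whole or nearly so. All 26 genes of the prolactin family (pituitary prolactin and the placental lactogens and their relatives), all 5 casein genes of milk and all 12 UDP glucuronosyltransferases of families 2 and 3, conjugating enzymes of the liver, were unmarked. The major urinary proteins, pheromone carriers made in the liver, had 19 of 22 genes unmarked, and the exocrine gland peptides of tears and saliva 14 of 15. Among antimicrobial peptides, 29 of 31 alpha defensins of the gut's Paneth cells were unmarked, against 14 of 43 beta defensins of other epithelia. Only 2 alpha defensins, 1 of them unmarked, lie in sequence with at least 90% unique words, against 34 beta defensins with 10 unmarked. The killer cell lectin-like receptors of natural killer cells had 21 of 30 unmarked, and the cornified envelope genes of the epidermis 24 of 37. Of the oocyte PRAME genes 27 of 38 were unmarked, but 1 of 10 among those with at least 90% unique words. The 5 Zscan4 genes of the cleavage-stage embryo were all unmarked, and none of them lies in such unique sequence. Other tissue-restricted families were marked, as none of 54 keratins, the intermediate filament proteins of epithelia, and none of 19 carboxylesterases, liver and gut enzymes, was unmarked. These marked keratins and carboxylesterases all carried H3K27me3. However, 10 of the 19 carboxylesterases and 2 of the 54 keratins had a peak in 5 libraries or fewer. Of 28 kallikreins, serine proteases of glands, 3 were unmarked. Families used by every cell were nearly free of unmarked genes, with 1 of 74 ribosomal protein genes (Rpl10l) and none of 38 proteasome or 35 complex I subunit genes.

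**Figure D1:**
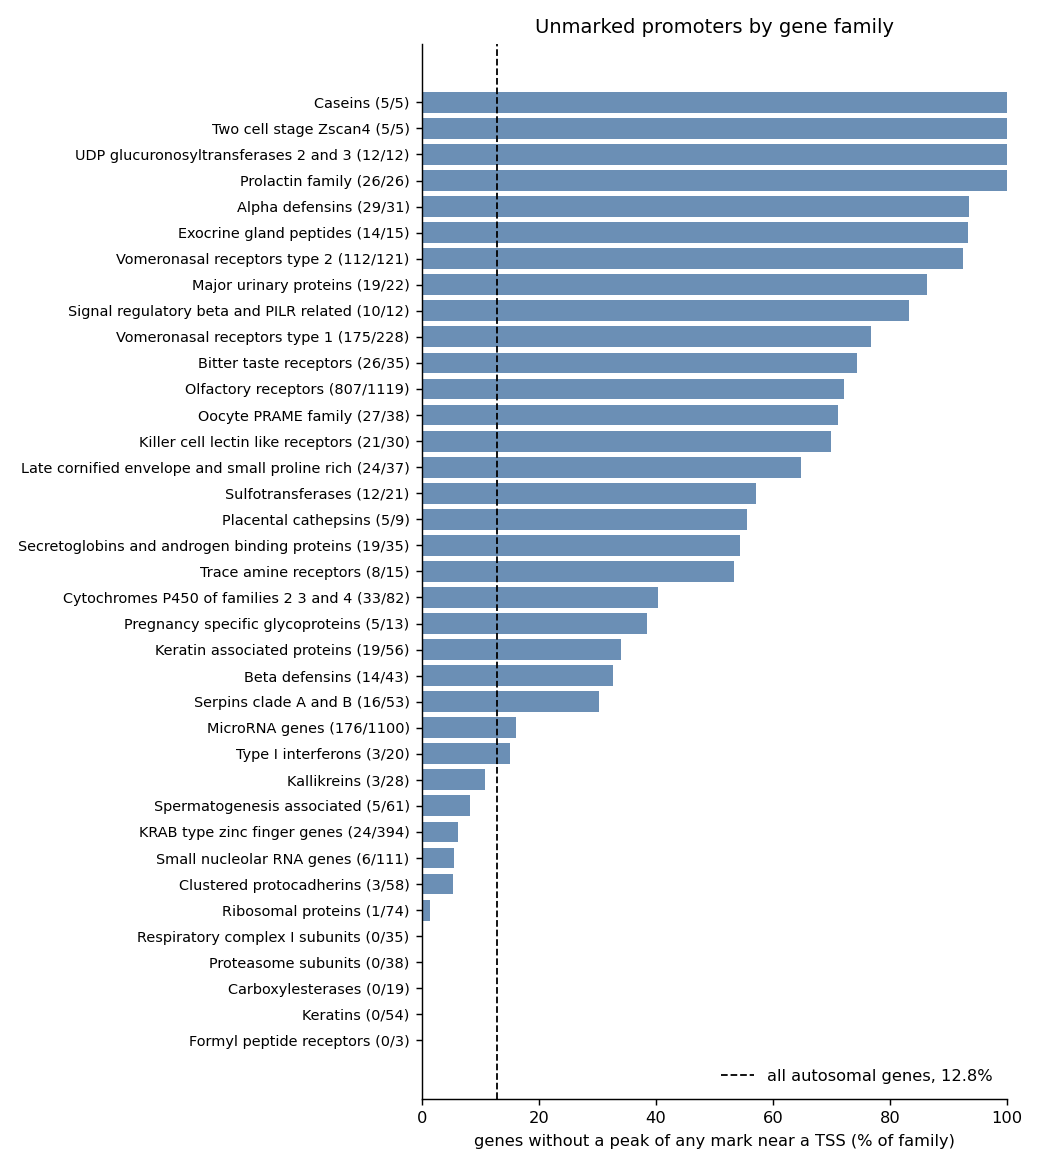
Share of the genes of each family without a peak of any mark within 1 kb of a TSS in any library (bars, percent of the family, unmarked over all autosomal genes of the family in brackets), with the share of all autosomal genes, 12.8%, as a dashed line. Caseins, Zscan4 genes, UDP glucuronosyltransferases and the prolactin family reach 100%, while keratins, carboxylesterases and complex I subunits stand at 0.

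A tissue other than cortex or muscle was not enough for a gene to be unmarked. Of the genes in lists for liver, 2 of 28 were unmarked, Hpx and Kng1 (kininogen, a plasma precursor of kinins), with 100% and 54.9% unique words, and 16 of the other 26 carried H3K27me3 as their only mark. Of 20 pancreatic genes, Ins1, the amylase gene Amy2a5 and the glucagon gene Gcg were unmarked, with 99.7%, 0% and 100% unique words. The second insulin gene differed, since Ins2 had H3K27me3 in 9 of 9 cortex libraries and H3K27ac in 9 of 10 gastrocnemius libraries. In the pituitary list 1 of 12 genes was unmarked, prolactin (Prl), and in the lists of retina and lens (1 of 26) and of sperm and spermatids (1 of 25) only Rpe65 and Pgk2. The epidermal list gave 2 of 19 (Dsg1a, a desmoglein, and Sprr2a1, with 65.7% and 2.61% unique words) and the intestinal list 2 of 19 (Sis and Lct, the brush border enzymes sucrase-isomaltase and lactase). Of 25 genes of T and natural killer cells, 3 were unmarked, those of interferon gamma (Ifng), the costimulator Icos and the chemokine Xcl1. Neither the oocyte list (16 genes) nor the B cell list (15 genes) held an unmarked gene.

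Of the globin genes 3 of the beta cluster were unmarked. Hbb-bs and Hbb-bt, the adult beta globins, and Hbb-y, an embryonic one, were unmarked, which made 3 of the 10 genes of the erythroid list. Their nearest H3K27me3 peak lay 5.27, 19.3 and 1.21 kb away, and their nearest H3K4me3 peak 391, 405 and 365 kb away. The alpha globin gene Hba-a1 had a single peak, of H3K27me3 in 1 cortex library, 0.872 kb from its start. Hba-a2 had H3K27me3 in 2 cortex libraries and 1 gastrocnemius library, at 0.492 kb. The edge of 1 kb and 1 to 3 libraries thus separated both genes from the unmarked set. Hbb-bs and Hbb-bt are near copies of each other, and 57.5% and 55.6% of the 51-base words around their starts occurred once in the genome, against 100% for Hbb-y, 25.7% for Hba-a1 and 25.5% for Hba-a2.

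By kind of transcript, 2397 unmarked genes code for proteins (11.97% of autosomal protein coding genes), 401 are long non-coding RNAs (12.5% of their kind) and 162 are transcribed pseudogenes (42.5%). Of 33 ribosomal RNA genes, mostly of 5S RNA, 26 were unmarked, all with under 90% unique 51-base words around the start. Of the 181 unmarked microRNA genes, for which RefSeq gives the hairpin and not the start of the primary transcript, 119 lie inside a longer gene on the same strand, and for 113 of these the host gene was marked. The largest set was the 72 microRNA genes from Mir466m to Mir669h (chr2:10466663-10518279) inside Sfmbt2, a Polycomb group gene. Around a TSS of Sfmbt2, H3K4me3 and H3K27me3 each had a peak in all 19 libraries, and H3K27ac in 9 of 9 cortex and 3 of 10 gastrocnemius libraries. For these microRNAs the rule therefore describes the body of a marked gene.

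Some unmarked genes had a marked start elsewhere in the gene. In 551 of the 3193 a peak lay within the gene, beyond 1 kb from its RefSeq starts, and in 88 of them this was an H3K4me3 peak. Bach2 and Klf12, which encode transcription factors, and Tenm3, which encodes a teneurin of neuronal wiring, had an H3K4me3 peak inside the gene in 19 of 19 libraries and an H3K27ac peak in 19 of 19. The same was so for the non-coding gene Snhg14, which spans 1177 kb and holds the starts of Snrpn and of small nucleolar RNAs. Dnah8, a dynein of sperm tails, had H3K4me3 in 19 of 19 libraries, with H3K27ac in 9 of 9 cortex and 5 of 10 gastrocnemius libraries. GENCODE M21 holds a gene of the same symbol for 2961 of the unmarked genes, and for 219 of these (59 of 798 olfactory receptors) a GENCODE start had a peak of some mark within 1 kb. For 19 genes, among them Bach2, Klf12, Tenm3, Nsd2 (a histone methyltransferase) and Arntl2 (a clock gene), H3K4me3 lay at a GENCODE start in all 19 libraries. Leaving these 219 out gives 2974 genes.

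The unmarked promoters were poor in CpG. In the 300 bases from 250 before to 50 after the TSS, the median ratio of observed to expected CpG was 0.132 (interquartile range 0.0610 to 0.247) over the unmarked genes and 0.525 over all autosomal genes. The median number of CpG was 2 against 11, the median G+C content 40.3% against 55.3%, and 21.8% of unmarked promoters against 4.77% of all held no CpG. The ratio was 0.787 for the 12395 genes with H3K4me3 and H3K27ac in every library. For the 3130 genes with H3K27me3 in at least 3 libraries of a tissue and without H3K4me3 it was 0.202, far below the genes with both active marks, as were the unmarked genes. Within the unmarked set, olfactory receptors had a median of 0.106 and genes outside the families listed here 0.158. Of the genes with a ratio under 0.1, 44.0% were unmarked, and of those at 0.8 or above 1.05%. The letters TATAAA, searched on both strands, occurred in 31.3% of unmarked promoters and in 13.1% of all. Between 40 and 20 bases before the TSS they occurred in 4.70% and 2.53%, and in 6.39% of the promoters with H3K27me3 and without H3K4me3. This share depends on where a start is placed. It was 6.36% for unmarked genes with a start that is not the first coding base and 1.36% for unmarked olfactory receptors. TATAAA is AT-rich, and its frequency was not compared at matched base composition.

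Sequence that occurs more than once was strongly represented. A 51-base word, the length of the authors' reads, was called unique when it occurred once on the chromosomes, and the share of unique words within 1 kb of the TSS was taken for each gene. Under 10% unique words, 374 of 388 genes (96.4%) were unmarked, from 10 to 50% unique words 78.7%, and among the 13706 genes with unique words only 4.38%. Of the unmarked genes, 22.6% had under 50% unique words, against 3.33% of all genes. The authors removed reads without a unique placement, so a promoter in duplicated sequence may hold a mark that could not be seen, and this could not be told apart from absence here. The major urinary proteins (median 16.7% unique), alpha defensins (16.6%) and Zscan4 genes (23.2%) were of this kind. Olfactory receptors (95.9%), the prolactin family (97.9%) and caseins (100%) were not. Among genes with at least 90% unique words, 1556 of 22158 (7.02%) were unmarked, with 509 of 745 olfactory receptors, 16 of 16 prolactin family genes, 8 of 8 UDP glucuronosyltransferases and 5 of 5 caseins. Their median CpG ratio was 0.126, against 0.582 for all genes of this kind, and the share unmarked fell with CpG content as in the whole set.

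**Figure D2:**
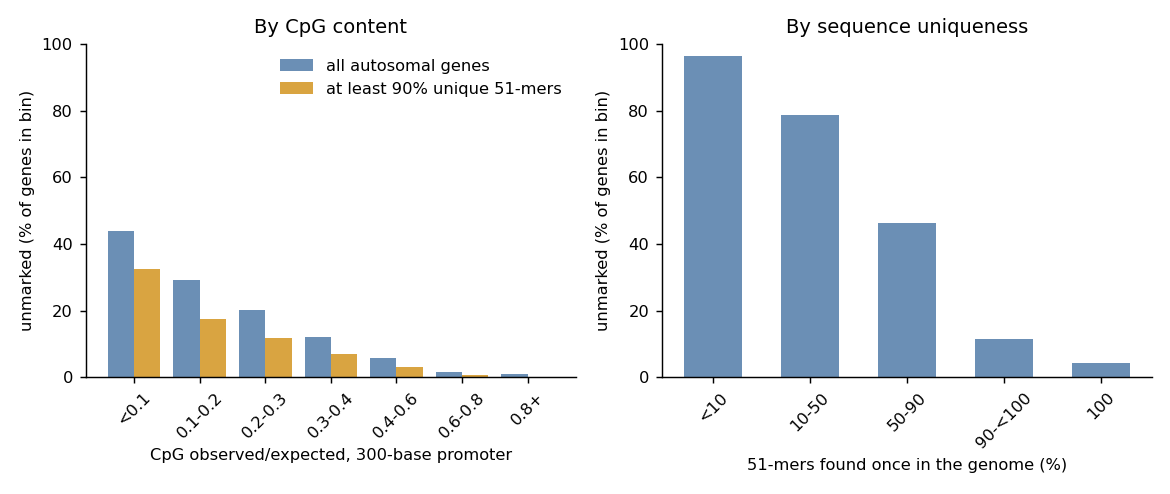
Percent of autosomal genes that were unmarked, on the left by the ratio of observed to expected CpG in the 300-base promoter (blue, all genes, and yellow, genes with at least 90% unique 51-base words), and on the right by the percent of 51-base words within 1 kb of the TSS found once in the genome. The share falls from 44.0% in the lowest to 1.05% in the highest CpG class and from 96.4% to 4.38% with uniqueness.

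Only 109 unmarked promoters (3.41%, against 42.2% of all) were rich in CpG, with a ratio of at least 0.6 and at least 50% G+C. Of these, 90 had under 90% unique words, and 26 were ribosomal RNA genes. The 19 others were read after their values had been seen, and no list or test defines what they share. They include genes known from meiosis and the germ line, namely Asz1, Rnf17 and Stk31 (proteins of germ granules and the piRNA pathway), Hormad1 and Syce1 (proteins of the meiotic chromosome axis and synaptonemal complex), Slc25a31 (the ADP/ATP carrier of the testis) and Fsip2 (a sperm tail protein). The other 12 were not sorted by function and may hold further germ line genes. They include Prss48, Naa11, Rnf212b, Ndufa11b, Mir218-1 and several pseudogenes and genes without a given name. Asz1 had 17 CpG in its 300-base promoter at a ratio of 0.783, with its nearest peak 2.26 kb away and its nearest H3K4me3 peak 60.3 kb away. Hormad1 had 24 CpG at 0.713, with its nearest peak at 11.7 kb. Slc25a31 had 22 CpG at 0.826, with its nearest peak at 13.7 kb. The sequences printed above show these dense CpG stretches in Asz1 and Hormad1.

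Most unmarked genes had an unmarked neighbour. Of the 3193 genes, 675 stood alone and 2518 (78.9%) lay in runs of 2 or more, and 55 runs of 10 or more genes held 1236 of them (38.7%). The longest run, 83 genes from Vmn1r91 to Nlrp4e (chr7:20101158-23362277), held 70 vomeronasal receptors and a median of 0.205% unique words. The microRNA run inside Sfmbt2 followed with 72 genes. A pair of olfactory receptor runs on chromosome 2, Olfr153 to Olfr1219 (chr2:87532035-89075089, 72 genes) and Olfr1034 to Olfr1126 (chr2:86046444-87458111, 69 genes), had medians of 96.6% and 98.3% unique words. The fifth run reached from Olfr772 to Olfr827 on chromosome 10 (chr10:129174051-130211128) with 51 genes. Most of the prolactin family lay in a run of 26 genes from Gm11351 to Prl5a1 (chr13:25921033-28151595), with Prl2c2, Prl2c3 and Prl2c5 elsewhere on chromosome 13. By chromosome the unmarked share ran from 3.77% on chromosome 11 to 21.1% on chromosome 7. Stretches of at least 100 kb without a peak in any of the 57 libraries held 1324 unmarked genes (41.5%), and stretches of at least 1000 kb held 211.

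Of the 3 marks, H3K27me3 came closest to the unmarked promoters. The median distance from a TSS to the nearest peak in any library was 20.7 kb for H3K27me3, 143 kb for H3K27ac and 155 kb for H3K4me3. Within 10 kb, 1052 unmarked genes had an H3K27me3 peak in at least 1 library, 372 an H3K27ac peak and 188 an H3K4me3 peak (32.95%, 11.7% and 5.89%, against 65.2%, 79.9% and 73.3% of all autosomal genes). A peak there in every library of the mark was found at 20 unmarked genes for H3K27me3, 52 for H3K27ac and 60 for H3K4me3. For H3K27me3 the tissues differed, with a median distance of 24.9 kb to a cortex peak and 111 kb to a gastrocnemius peak. For H3K4me3 these distances were 172 and 188 kb, and for H3K27ac 161 and 206.6 kb. The genes farthest from any mark included 473 at more than 100 kb from a peak of any kind. Mup1, a major urinary protein, lay 493.6 kb from the nearest H3K27me3 peak and 629.6 kb from the nearest H3K4me3 peak, in sequence with 9.3% unique words. Prl, with 100% unique words, lay 49.6 kb from H3K27me3, 140.4 kb from H3K27ac and 1279 kb from H3K4me3.

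**Figure D3:**
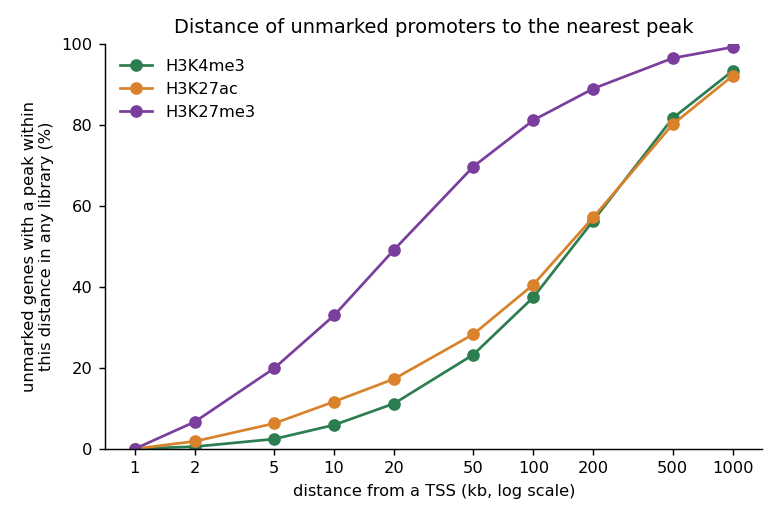
Cumulative percent of the 3193 unmarked genes with a peak of each mark within a given distance of a TSS in any library (distance in kb, log scale). At 10 kb the curves stand at 32.95% for H3K27me3, 11.7% for H3K27ac and 5.89% for H3K4me3, and at 1 kb all are 0 by the rule.

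The flanks of these promoters, from 1 to 10 kb on either side of a TSS, lie outside the window of the rule. The rule used both tissues, but not evenly, since gastrocnemius replicate 5 of H3K27me3 alone removed 128 genes from the unmarked set and no cortex library of this mark more than 34. In the cortex, H3K27me3 peaks lay in the flanks of 11.3% ± 1.41 of unmarked genes per library (SD, n = 9, from 8.83 to 12.9%), and in the gastrocnemius of 5.15% ± 2.54 (SD, n = 10, from 2.88 to 11.8%). The 9 other gastrocnemius libraries reached at most 6.11%, below every cortex library, and only replicate 5, with the most reads in peaks, lay among the cortex values. Over all autosomal genes the flank shares were 39.1% ± 1.75 (cortex) and 38.2% ± 5.32 (gastrocnemius), with overlapping ranges. Per library, the share of unmarked genes was 23.8 to 32.6% of the share of all genes in the cortex and 8.81 to 23.7% in the gastrocnemius. The difference of 6.17 percentage points fell to 2.31, with overlapping tissues, when equally many top-scoring peaks were taken from each library. No p is given here, since the genes were chosen by the same libraries.

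Olfactory receptors separated the tissues further. Among the 807 unmarked olfactory receptors, H3K27me3 lay in the flank of 11.5% ± 2.29 per cortex library (SD, n = 9, from 8.18 to 14.99%) and of 1.56% ± 1.42 per gastrocnemius library (SD, n = 10, from 0.124 to 5.33%), without overlap. With equally many top-scoring peaks the ranges were 2.48 to 6.82% and 0.124 to 2.23%, again without overlap. For the other unmarked genes the means were 11.3% ± 1.29 and 6.37% ± 2.95, and here the ranges overlapped (9.05 to 12.3% and 3.77 to 14.0%). Gastrocnemius replicate 5 alone made this overlap, as the 9 other gastrocnemius libraries reached at most 7.75%.

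For the active marks the ranges of the tissues overlapped. H3K4me3 was found in the flanks of 3.18% ± 0.383 of unmarked genes per cortex library (SD, n = 9) and of 3.19% ± 0.373 per gastrocnemius library (SD, n = 10), against 64.4% and 65.0% of all genes. H3K27ac was found in the flanks of 5.25% ± 0.983 and 5.19% ± 0.533, against 71.3% and 67.9% of all genes, with the lowest cortex value, 2.98%, in replicate 9. With equally many top-scoring peaks per library the H3K27ac ranges no longer overlapped, with 2.98 to 3.82% in the cortex and 3.98 to 5.23% in the gastrocnemius. With all peaks, olfactory receptors had an H3K27ac flank share of 0.812% ± 0.249 (cortex) and 0.459% ± 0.0837 (gastrocnemius), with overlapping ranges.

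**Figure D4:**
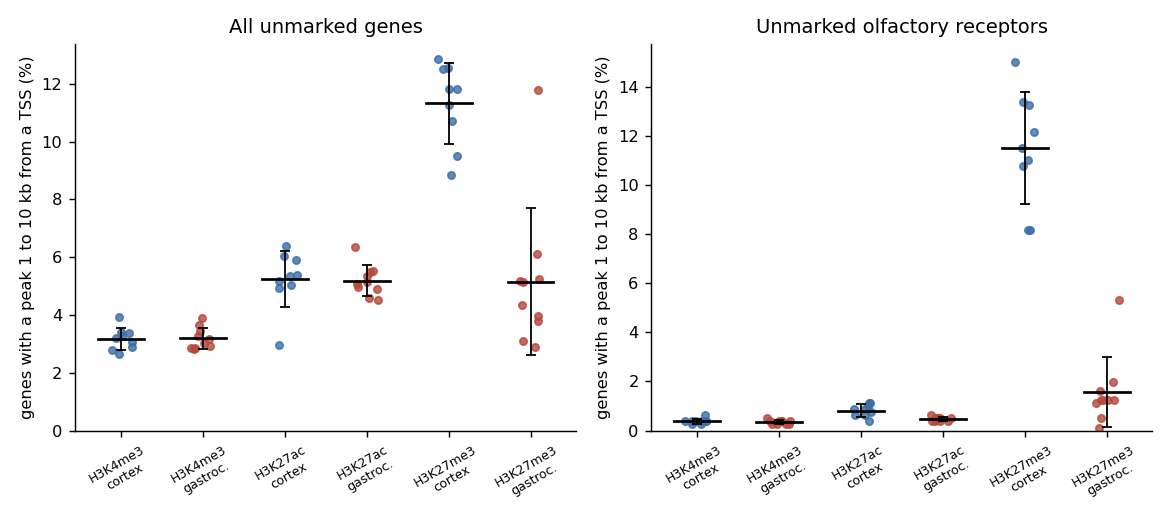
Percent of unmarked genes (left) and of unmarked olfactory receptors (right) with a peak 1 to 10 kb from a TSS, for each library (points), with the mean (horizontal line) and SD (bars) of each mark and tissue, 9 cortex and 10 gastrocnemius libraries for each mark. The mean of H3K27me3 in the cortex stands above that in the gastrocnemius. The highest gastrocnemius point is replicate 5, at 11.8% within the cortex range (left) and at 5.33% below it (right).

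Which genes differed was tested gene by gene, by comparing the number of libraries with a flank peak between the tissues with Fisher's exact test (two-sided, Benjamini-Hochberg adjustment over all autosomal genes with such a peak in at least 1 library, FDR under 0.1). For H3K27me3, 146 of the 1052 unmarked genes tested had a flank peak in more cortex libraries (13.9%, against 11.5% of all genes tested) and 11 in more gastrocnemius libraries (1.05%, against 10.4%). The unmarked genes were chosen by the absence of H3K27me3 near their starts in the same libraries, so nothing is read from these shares. With equally many top-scoring peaks per library the calls fell to 59 and 10 of 608, against 9.62% and 14.2% of all genes tested. Without the libraries whose deposited names carry a run number they fell to 61 and 4 of 933, against 8.06% and 5.68%. Olfactory receptors made up 60 of the 146 and none of the 11, of 292 tested, and neighbours among them can share a flank peak. For H3K27ac, 48 of 372 were called in the cortex (12.9%, against 8.4%) and 50 in the gastrocnemius (13.4%, against 3.84%). For H3K4me3, 19 of 188 were called in the cortex (10.1%, against 4.02%) and 6 in the gastrocnemius (3.19%, against 3.84%). The unmarked genes were chosen by the absence of these marks as well, so nothing is read from these shares either. Since 9 mice gave both tissues, the libraries were also paired by the animal code in the deposited names, in an exact McNemar test. With this block 34 and 2 of 997 unmarked genes were called for H3K27me3, against 5.12% and 4.33% of all genes tested. For H3K27ac 11 and 17 of 369 were called, against 3.94% and 1.4%. None was called for H3K4me3, where the smallest p that 9 pairs allow, 0.00391, could not pass the adjustment.

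Among the unmarked genes with H3K27me3 in the flank in 9 of 9 cortex and 0 of 10 gastrocnemius libraries, those with the most reads were Cd209c, which encodes a C-type lectin, and the olfactory receptors Olfr50, Olfr3, Olfr166 and Olfr341 (Fisher's exact p = 1.08e-05, adjusted 0.000228 for each). Reads are given as RPM, that is, scaled to the reads in autosomal peaks of the library in M. Cd209c held 13.9 to 58.2 RPM over the cortex libraries (median 35.0), in sequence with 6.92% unique words. Olfr50 (chr2:36793238-36794176) held 21.4 to 48.7 RPM (median 25.3), and Olfr3, its neighbour at chr2:36812149-36813090, 21.4 to 44.5 RPM (median 25.3). The spans of their flank peaks overlap and their lowest and median values are equal, so these calls are not independent. Olfr166 held 16.3 to 31.2 RPM and Olfr341 15.6 to 29.8 RPM. No gastrocnemius library had a peak at any of these 5 genes, which was part of their choice, and reads outside peaks were not compared. Among the 11 genes called in the gastrocnemius was Mir5108, whose flank peaks lie at the start of the histone variant gene Macroh2a2. It had H3K27me3 in 10 of 10 gastrocnemius and 0 of 9 cortex libraries, with 18.4 to 69.97 RPM (median 37.0). Pirb, a leukocyte receptor gene, had a peak in 9 gastrocnemius libraries and 1 cortex library (Fisher's exact p = 0.00109, adjusted 0.00899), in sequence with 18.8% unique words. Gm15455 (up to 144 RPM, median 20.1) and the non-coding gene 1700085C21Rik (up to 47.9 RPM, median 17.7) had a peak in 7 of 10 gastrocnemius and 0 of 9 cortex libraries (Fisher's exact p = 0.0031, adjusted 0.0199). With the libraries paired by animal Mir5108 was still called (exact McNemar p = 0.00391, adjusted 0.0725), while Pirb (adjusted 0.115) and Gm15455 and 1700085C21Rik (adjusted 0.166) were not.

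H3K27ac in the flank was called in 9 of 9 cortex and 0 of 10 gastrocnemius libraries at genes that included Kctd4, 2410021H03Rik, Gm10677 and 1700100L14Rik, and in 10 of 10 gastrocnemius and 0 of 9 cortex libraries at Car1, 4931439C15Rik, Adh6a, Gm15614 and Gm7168 (Fisher's exact p = 1.08e-05, adjusted 0.00021 for each). Kctd4 (chr14:75955003-75965217) held 35.9 to 47.6 RPM of H3K27ac (median 40.1) in the cortex and 63.4 to 80.0 RPM of H3K4me3 (median 69.8), the latter also in 9 of 9 cortex and 0 of 10 gastrocnemius libraries. Its H3K27ac peaks lay at chr14:75956401-75969000 and its H3K4me3 peaks at chr14:75961601-75968000, from inside the gene to past its end. Car1, a carbonic anhydrase gene (chr3:14766214-14808365), held 27.5 to 72.0 RPM (median 34.7) in the gastrocnemius, and Adh6a, an alcohol dehydrogenase gene, 8.69 to 21.8 RPM (median 14.8).

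A few further genes were picked after their values had been seen. Sln encodes sarcolipin, an inhibitor of the calcium pump of muscle. It had no mark at its promoter in the gastrocnemius, while its flank carried H3K27ac in 9 of 9 cortex libraries (3.81 to 11.3 RPM, median 7.04) and in none of the gastrocnemius (Fisher's exact p = 1.08e-05, adjusted 0.00021). Kcnv2, a potassium channel subunit gene, and Col10a1, the collagen X gene of cartilage, had flank H3K27ac in 10 of 10 gastrocnemius and 0 of 9 cortex libraries (adjusted 0.00021 in the same exact test). The flank of Kcnv2 carried H3K27me3 in 8 of 9 cortex and 0 of 10 gastrocnemius libraries (Fisher's exact p = 0.000119, adjusted 0.00141).

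Mir155, a microRNA of activated immune cells that was likewise chosen after its values had been seen, had H3K27me3 in its flank in one tissue and H3K27ac in the other. H3K27me3 lay there in 9 of 9 cortex libraries (14.0 to 28.9 RPM, median 20.4) and in none of the gastrocnemius, and H3K27ac in 9 of 10 gastrocnemius libraries (up to 17.3 RPM, median 14.7) and in none of the cortex (Fisher's exact p = 1.08e-05 and 0.000119, adjusted 0.000228 and 0.00166). With the libraries paired by animal the H3K27ac call was lost (exact McNemar p = 0.00781, adjusted 0.104). Its nearest H3K4me3 peak lay 8.14 kb away, and its host gene Mir155hg was unmarked at its RefSeq start but had H3K4me3 at a GENCODE start in all 19 libraries. The mature sequence that Mir155 yields (RefSeq, GRCm38.p6, chr16:84714143-84714165, plus strand) is given with its seed, bases 2 to 8, in capitals.
mmu-miR-155-5p: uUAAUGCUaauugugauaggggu

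H3K4me3 in the flank of Kctd4, 4930590L20Rik, 4930532I03Rik, Trappc3l and Gm1979 was seen in 9 of 9 cortex and 0 of 10 gastrocnemius libraries (Fisher's exact p = 1.08e-05, adjusted 0.000304). Outside Kctd4 the reads were few, from 5.09 to 7.88 RPM at 4930590L20Rik down to 2.84 to 4.51 RPM at Gm1979. In the gastrocnemius the 5 with the largest difference were Gm10653, at the start of Calml4, with 10 of 10 and 1 of 9 libraries (15.3 to 21.2 RPM in the gastrocnemius), and Nxpe4, C230072F16Rik, Vmn1r238 and Tpbpa with 8 of 10 and 0 of 9 each (Fisher's exact p = 0.000714, adjusted 0.0115). Tpbpa is a gene of placental trophoblast, and its flank peaks lay at the start of Ctla2a. With the libraries paired by animal none of these H3K4me3 genes was called, and the McNemar test could call no gene for this mark.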

How the data were processed

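ChIP-seq of H3K4me3, H3K27ac and H3K27me3 was performed on frozen cortex and gastrocnemius of PSAPP mice, in 9 and 10 libraries for each mark. The authors aligned paired reads to mm10 with BWA, removed unmapped, ambiguously placed and duplicate reads and reads off the autosomes and X with SAMtools, and called peaks in each library with epic2. The epic2 setting g was larger for H3K27me3 than for the other marks. The deposited count of a peak is the whole number of reads (fragments) that the authors' epic2 run found in it, not normalized. The deposited score is the epic2 score given by the authors, used here only to rank peaks. No input library and no reads outside peaks entered the values. Starts were those of curated RefSeq transcripts (NM and NR) on GRCm38.p6, every start of a gene counting. Groups were taken from the sample titles. The 294 of 1126 X-linked genes without a mark are outside the rule. A flank peak is one that overlaps 1 to 10 kb on either side of a start.

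Flank calls were compared between the tissues by Fisher's exact test per gene, with Benjamini-Hochberg adjustment over all autosomal genes tested (FDR under 0.1). The exact permutation test planned for the share of unmarked genes was not printed, since these genes were chosen from the same libraries. Unmarked genes, families and lists were chosen with earlier results of these data known. The named genes of the flank tests are the 5 in each mark and direction with the largest difference in libraries, ties by reads, the others being the first of each list, the longest runs and those said to be chosen later. Unique 51-base words were counted over the whole reference, on both strands, and read pairs reach farther than 1 word. Same-numbered samples share an animal only in part, so pairs were taken from the animal codes of the deposited names (9 pairs). Deviations of paired libraries from their tissue means correlated between -0.117 and 0.111 over genes, so the pairing rests on the names and not on these values. Alternatives were other windows and flanks, at least 2 or 3 libraries, no low-scoring peaks, equally many peaks, 1 start per gene, other annotation, unique sequence, each library left out and the pairing. Computations used Python 3.11.15 with NumPy 2.4.6, pandas 2.3.3, SciPy 1.17.1 and statsmodels 0.14.6. The test code was checked on simulated calls. The flank values of 1 gene that the naming rule selected are not reported here.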

Additional observations from a re-analysis of the deposited data

Results flagged for a closer look

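Genes without a peak and flank shares were compared within the 9 or 10 libraries of each mark and tissue, 12 sets of values in all. In 3 of them the most extreme library lay farther from the others than Dixon's 95% limit, where chance gives about 1 such set in 20. Cortex replicate 9 of H3K27ac accounted for 2 of these, with no peak within 1 kb of a TSS at 9731 autosomal genes and flank peaks at 2.98% of unmarked genes, the most and the fewest of its group, and with 3.90 M reads in peaks. Gastrocnemius replicate 5 of H3K27me3 had flank peaks at 11.8% of unmarked genes, the most of its group, with 18.2 M reads in peaks. The part of the reads in peaks in these values was not tested.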

How the results depend on the processing

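The number of unmarked genes stayed between 2431 (window of 5 kb) and 4174 (peak in at least 3 libraries of a mark and tissue) under other windows, calls and libraries, with 618 and 941 olfactory receptors. In sequence with at least 90% unique words it was 1556, with 509 olfactory receptors, and it was 2233, with 220 olfactory receptors, among genes with a start that is not the first coding base. Leaving out each library gave 3193 to 3321 genes and 807 to 833 olfactory receptors. The median CpG ratio lay between 0.126 and 0.158. Reads in peaks, the only reads known here, limit what an absent peak can show, and the cause of the changes below was not tested.

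The difference in flank share between cortex and gastrocnemius was -0.0143 percentage points for H3K4me3, 0.0581 for H3K27ac and 6.17 for H3K27me3. With flanks to 50 kb it was 0.987, 2.32 and 19.3, and with flanks to 5 kb 3.14 for H3K27me3. Equally many top-scoring peaks gave -0.985 for H3K27ac and 2.31 for H3K27me3, and without the 25% of peaks that scored lowest it was 3.86 for H3K27me3. As a percent of the share of all genes in the same library, the differences were 0.0241, -0.305 and 15.9. Each library left out gave -0.107 to 0.0626 for H3K4me3, -0.0846 to 0.342 for H3K27ac and 5.92 to 6.91 for H3K27me3. Pairing by animal gave -0.0452, 0.0905 and 6.91, and pairing by title number -0.0522, 0.0766 and 6.18.

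Counts of unmarked genes called are given as cortex and gastrocnemius, out of those tested, with the share of all autosomal genes called in brackets. With flanks to 5 kb they were 3 of 77 for H3K4me3 in the cortex (4.08%). For H3K27ac they were 21 and 24 of 200 (8.49% and 4.39%), and for H3K27me3 55 and 6 of 635 (10.8% and 11.4%). With flanks to 50 kb they were 59 and 34 of 743 for H3K4me3 (3.0% and 1.75%). For H3K27ac in the cortex they were 126 of 904 (6.23%), and for H3K27me3 561 and 38 of 2226 (11.8% and 5.65%). Without those low-scoring peaks they were 7 of 137 for H3K4me3 in the cortex (4.01%). For H3K27me3 they were 85 and 7 of 740 (11.2% and 10.9%). With equally many peaks H3K4me3 gave 2 of 130 in the gastrocnemius (3.68%). In the cortex H3K27ac gave 29 of 288 (7.97%) and H3K27me3 59 of 608 (9.62%). Without peaks at other TSSs H3K4me3 gave 11 of 105 in the cortex (6.88%). Without libraries whose names carry a run number, H3K4me3 gave 11 of 176 in the cortex (3.3%). H3K27ac gave 29 of 339 in the gastrocnemius (2.46%), and H3K27me3 gave 61 and 4 of 933 (8.06% and 5.68%). In sequence with at least 90% unique words they were 10 and 3 of 84 for H3K4me3 (4.02% and 3.84%). For H3K27me3 in the gastrocnemius they were 7 of 633 (10.4%).

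Pairing by title number gave 0 and 0 for H3K4me3. For H3K27ac it gave 11 and 17 of 371 (3.86% and 1.39% of all genes), and for H3K27me3 33 and 2 of 1050 (4.64% and 4.22%). Pairing by animal gave 0 and 0, 11 and 17 of 369 (3.94% and 1.4%), and 34 and 2 of 997 (5.12% and 4.33%). For H3K4me3 the smallest adjusted p that either pairing reached was 0.106, so the McNemar test could call no gene there, and 22 and 16 unmarked genes had an unadjusted p under 0.05 in Fisher's test. With each library left out, the counts were 16 to 19 and 5 to 6 for H3K4me3, 40 to 44 and 41 to 46 for H3K27ac, and 99 to 132 and 8 to 12 for H3K27me3.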

Other observations

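Families of liver, skin and leukocytes not yet described were unmarked in part. Of the cytochromes P450 of families 2, 3 and 4, which metabolize drugs and lipids, 33 of 82 were unmarked, but 8 of 49 among those with at least 90% unique 51-base words. The same drop was seen for serpins of clades A and B, protease inhibitors (16 of 53 and 5 of 37), for secretoglobins and androgen binding proteins of glands (19 of 35 and 2 of 17) and for oocyte PRAME genes (27 of 38 and 1 of 10). Sulfotransferases (12 of 21 and 7 of 15), keratin associated proteins of the hair shaft (19 of 56 and 11 of 34) and pregnancy specific glycoproteins (5 of 13 and 2 of 7) changed less in share. Placental cathepsins had 5 of 9 genes unmarked, leukocyte receptors with symbols that start with Sirpb, Pira, Pilr or Lilr 10 of 12, and type I interferons 3 of 20. Genes named for spermatogenesis had 5 of 61 unmarked, small nucleolar RNA genes, taken by their symbols, 6 of 111 (14 of 122 when taken by kind of transcript) and clustered protocadherins, adhesion proteins of neurons, 3 of 58. None of 3 formyl peptide receptors was unmarked. Zinc finger genes lie in tandem clusters of similar sequence, and 24 of 394 were unmarked, with 2 of 314 in unique sequence.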
